A study of Mus musculus with 2 samples.

Results

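CD4 T cells were taken from single-cell RNA profiles of injured mouse kidney as barcodes with at least 1 unique molecular identifier (UMI, the tag that marks 1 captured RNA molecule) of Cd3d, Cd3e or Cd3g, at least 1 Cd4 UMI, no Cd8a or Cd8b1 UMI, fewer than 5 UMIs of C1qa, C1qb and C1qc together, and no Slc12a1 UMI. The Cd3 genes encode the signalling chains of the T-cell receptor, Cd8a and Cd8b1 the co-receptor of CD8 T cells, the C1q genes mark macrophages, and Slc12a1 marks the thick ascending limb of the nephron. This gate held 247 of 19478 kept barcodes, 35 of 9452 in the control library and 212 of 10026 in the haplodeficient library. Kept barcodes had 500 or more UMIs, 200 or more genes and no more than 50% mitochondrial UMIs.

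CD4 T cells recognise peptides on MHC class II molecules and act mainly through the cytokines they release. Type 1 helper cells, led by the factor T-bet (Tbx21), make interferon-gamma (Ifng). Type 17 helper cells make the interleukins encoded by Il17a and Il17f. Type 2 cells, led by Gata3, make the products of Il4, Il5 and Il13. Regulatory T cells are defined by the factor Foxp3, and they restrain the other states. In injured kidney, regulatory T cells are also known for the growth factor amphiregulin (Areg) and the interleukin-33 receptor (Il1rl1).

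The study set kidneys of mice with reduced endothelial PHD3 beside control kidneys. PHD3, encoded by Egln3, is an oxygen-sensing prolyl hydroxylase. Both libraries came from kidney 14 days after ischaemia-reperfusion injury by clamping of the renal artery on one side, and both groups had received 4 tamoxifen injections. The control library was Cre-negative, and the labels do not say whether its mice carried the floxed allele. The haplodeficient library was Cdh5-CreERT2; Phd3f/+, with 1 floxed allele and a tamoxifen-inducible Cre under the Cdh5 promoter, which is active in endothelium and is not a T-cell promoter. Each group was 1 library in the same batch, and the labels give no number of animals, so no comparison has a replicate check and no p-value is given. Intervals are 95% and cover counting error only. Those of levels and ratios treat each UMI as independent, so they are too narrow where a few cells hold many UMIs.

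The libraries held 134190236 UMIs in the control and 114668145 in the haplodeficient, and kept barcodes had median depths of 9160 and 5861.5 UMIs. CD4-gated barcodes had nearly equal median depths, 3022 UMIs in the control library and 2947.5 in the haplodeficient. Their median mitochondrial shares were 4.02% and 2.17%. The 2 libraries shared 28 barcode sequences, none of them a member. Egln3 was captured at 11.5 CPM (UMIs of a gene per 1000000 UMIs summed) in 610 control barcodes with at least 5 endothelial-list UMIs and no Cd3 UMI, and at 12.3 CPM in 1209 haplodeficient ones. The labels do not give the deleted exon, so these 3′-end counts do not test the allele. In CD4 T cells, Egln3 had 2 control UMIs and 23 haplodeficient UMIs, or 9.98 and 24.1 CPM. It was detected in 2 of 35 control cells (0.700 to 19.2%) and 14 of 212 haplodeficient cells (3.66 to 10.8%), and these intervals overlapped.

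Most members carried further T-cell genes. Of those that the gate did not use, Trac, the constant chain of the αβ T-cell receptor, was in 27 of 35 control and 166 of 212 haplodeficient cells, and Cd28, the main costimulatory receptor, was in 23 and 158. Cd3 UMIs per cell had medians of 8 and 9. The Cd4 threshold itself was thin: 24 control and 135 haplodeficient cells had exactly 1 Cd4 UMI, and the highest counts were 5 and 6. Just outside the gate lay 1 control and 13 haplodeficient barcodes with both Cd4 and Cd8, 1 and 5 with 5 or more C1q UMIs, and 3 and 14 with an Slc12a1 UMI. A further 96 and 554 barcodes had a Cd3 UMI but none of Cd4 or Cd8.

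A few very deep barcodes carried genes of other cells. In the control library, 6 barcodes exceeded 3 times the median depth and held 51.5% of all CD4-gated UMIs. The deepest, with 41026 UMIs, held 1 Cd3 UMI beside 798 UMIs of the neutrophil list and 305 of the endothelial list, and 3 others held proximal tubule or thick ascending limb genes. In the haplodeficient library, 13 such barcodes held 31.6% of UMIs. Barcodes with 5 or more UMIs of a B cell, dendritic cell, neutrophil, endothelial or fibroblast list numbered 1 and 20. Both screens together left 29 control and 188 haplodeficient cells with 97150 and 588924 UMIs, called screened cells below. Levels are over all members unless given as over screened cells. Among markers of other lymphocytes, Ms4a1 and Pax5 of B cells and Ncr1 of natural killer cells had 0 UMIs in both libraries, while 5 and 6 of the 9 B and plasma cell markers had 66 and 148 UMIs in all. Of the 14 macrophage and monocyte markers, Adgre1 and Ms4a7 were at 0 in both libraries, but the list had 100 UMIs in 20 of 35 control cells and 655 UMIs in 122 of 212 haplodeficient cells. At 5 or more UMIs of that list stood 3 and 23 cells, which the screens did not remove for it. The whole natural killer list had 0 UMIs over control members and 16 over haplodeficient ones. Proximal tubule RNA reached every control cell: all 35 had a UMI of that list against 49 of 212 haplodeficient cells. In barcodes of 1 to 100 UMIs, taken as free RNA, the list stood at 27186 CPM in the control and 5167 CPM in the haplodeficient library.

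**Figure D1:**
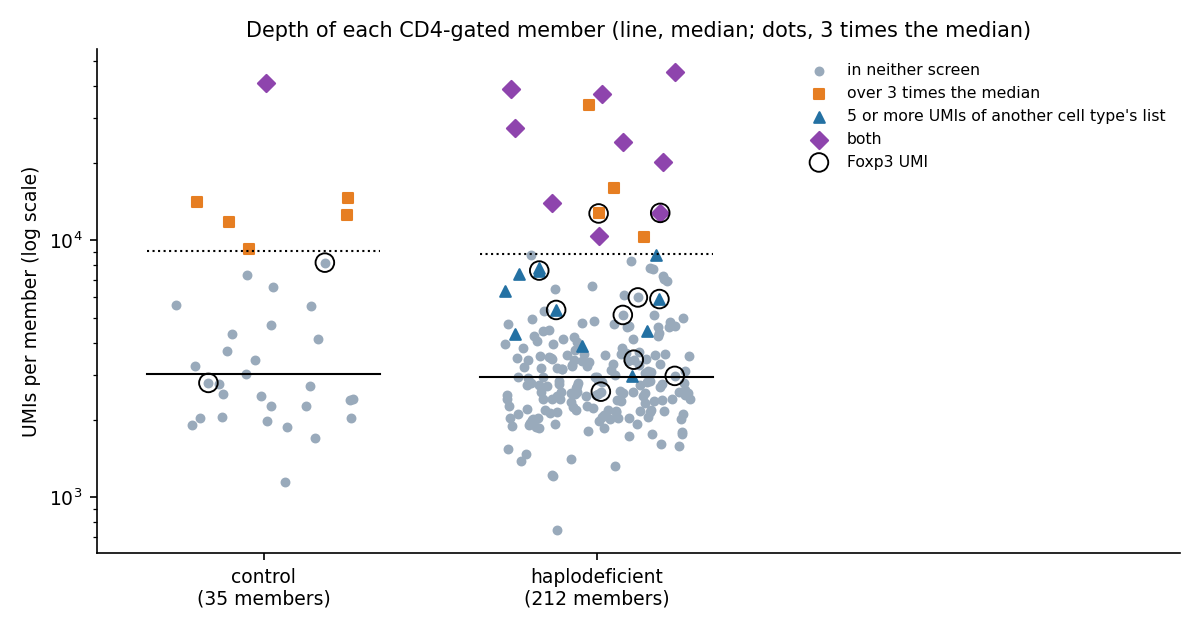
UMIs per CD4-gated barcode (log scale) in the control library (35 members) and the haplodeficient library (212 members), with the median as a line and 3 times the median as a dotted line. In the control library the deepest barcode, at 41026 UMIs, stands far above the median of 3022.

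CD4 T cells made up a larger share of the haplodeficient library. They were 0.370% (0.258 to 0.515) of kept control barcodes and 2.11% (1.84 to 2.42) of kept haplodeficient barcodes, so the intervals did not overlap. Over barcodes with a UMI of Ptprc, the pan-leukocyte gene CD45, they were 34 of 1651, or 2.06% (1.43 to 2.87), and 189 of 4029, or 4.69% (4.06 to 5.39). Over barcodes with a Cd3 UMI they were 15.2% (10.8 to 20.5) and 14.9% (13.1 to 16.9). The share among T cells was therefore alike within counting error, and the share among all barcodes moved with the whole T-cell and leukocyte content: Ptprc-positive barcodes were 17.5% of the control and 40.2% of the haplodeficient library.

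CD8-gated cells, chosen by the same rule with Cd8a or Cd8b1 in place of Cd4, showed the same pattern. They were 68 control and 484 haplodeficient barcodes, 0.719% and 4.83% of the kept barcodes. Of CD4- and CD8-gated cells together, CD4 cells were 33.98% (24.9 to 43.97) and 30.5% (27.1 to 34.03). With every barcode thinned to 1000 UMIs, the CD4 share of kept barcodes was 0.188% (0.110 to 0.301) and 0.987% (0.800 to 1.21), and that of Cd3-positive barcodes 9.77% (5.80 to 15.2) and 8.23% (6.71 to 9.96). With 1 library a group, genotype and library cannot be told apart in these shares.

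**Figure D2:**
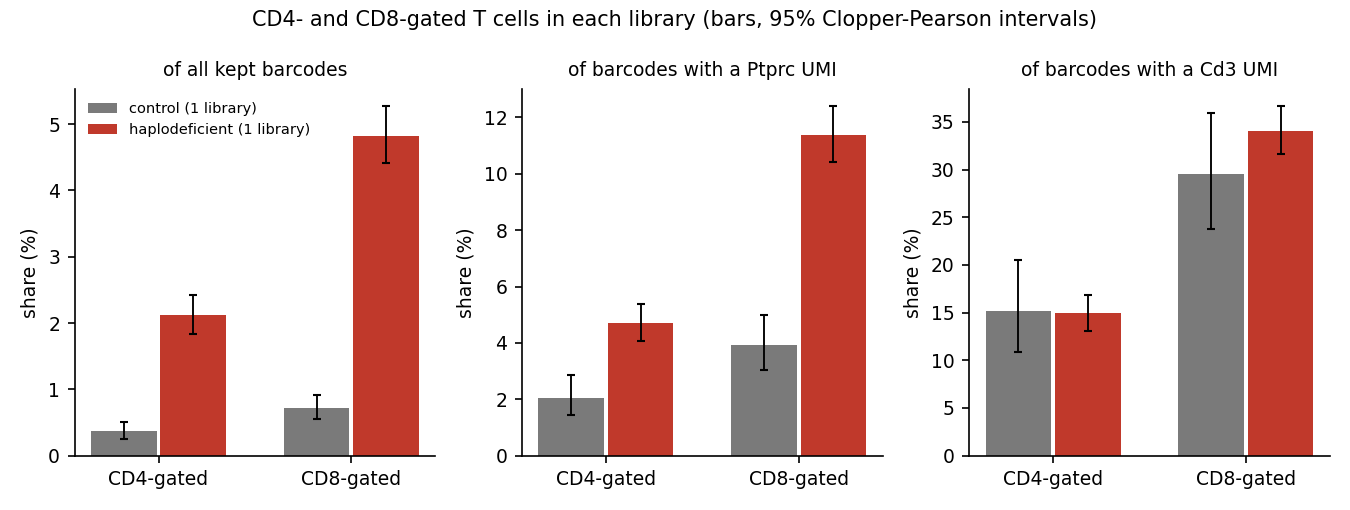
Share (%) of CD4-gated and CD8-gated barcodes in each library over 3 denominators, as bars with 95% Clopper-Pearson intervals. Over all kept barcodes the CD4 share is 0.370% for the control and 2.11% for the haplodeficient library, and over Cd3-positive barcodes it is 15.2% and 14.9%.

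The helper and regulatory states were read from single genes, each with few UMIs per cell. To compare libraries and cell types at 1 depth, the share of cells with a UMI is given for a thinned depth of 1000 UMIs per cell, averaged over every possible draw. Intervals of these averaged shares are those of the nearest whole number of cells, so shares close together can carry the same interval. All 35 control and 211 haplodeficient members were deep enough. The same shares in CD8-gated cells, with median depths of 2989 and 2772 UMIs, and in macrophage-gated barcodes, at 5809 and 6547, are given beside them.

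Foxp3 (ENSMUSG00000039521) was rare. It was detected in 2 of 35 control cells, 5.71% (0.700 to 19.2), and in 10 of 212 haplodeficient cells, 4.72% (2.28 to 8.50). At equal depth the expected shares were 2.34% (0.0723 to 14.9) and 1.498% (0.294 to 4.10), against 0% and 0.0433% of CD8-gated cells and 0.0153% and 0% of macrophage-gated barcodes. A single draw at that depth kept 1 cell in each library, 2.86% and 0.474%. The screens removed none of the 2 control and 5 of the 10 haplodeficient Foxp3-positive cells, leaving 6.90% (0.846 to 22.8) and 2.66% (0.869 to 6.10). No difference between the libraries in the Foxp3-positive share was detectable at this depth.

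The 12 Foxp3-positive cells carried some but not all of the other genes of regulatory T cells. Ikzf2, which encodes the factor Helios, had a UMI in all 12, and Ctla4, the inhibitory receptor, in 2 of 2 and 8 of 10. Among Foxp3-negative cells Ikzf2 was found in 11 of 33 and 40 of 202. Areg had a UMI in 1 of 2 and 8 of 10 Foxp3-positive cells, against 5 of 33 and 40 of 202 others. Il1rl1 was found in 1 of 2 and 6 of 10, against 1 of 33 and 11 of 202. By contrast Cd40lg, the helper ligand that stimulates B cells and antigen-presenting cells, was found in 0 of 2 and 1 of 10 Foxp3-positive cells but in 20 of 33 and 136 of 202 others. Other regulatory genes were less clear. Il2ra, the high-affinity interleukin-2 receptor chain, was in 1 of 2 and 3 of 10, against 4 of 33 and 22 of 202 others. Lrrc32 was in no Foxp3-positive cell and in 2 of 33 and 6 of 202 others. Gpr83 had 0 UMIs in all members. Nrp1, a surface receptor, was in 2 of 2 and 3 of 10 Foxp3-positive cells, against 6 of 33 and 42 of 202 others. Its level ran the other way, at 273 against 518 CPM and at 93.0 against 230 CPM. The 98 control UMIs of Nrp1 in Foxp3-negative cells lay in only 6 cells. Icos was higher among control cells, at 2369 against 628 CPM, and lower among haplodeficient ones, at 171 against 594 CPM. Foxp3-positive cells had 2788 and 8187 UMIs (control) and between 2578 and 12784 (haplodeficient), beside member medians of 3022 and 2947.5, so several were deep and their detection counts are not at equal depth.

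Apart from Nrp1, CPM levels, which allow for depth, had the same directions. Tnfrsf9, the costimulatory receptor 4-1BB, stood at 1367 CPM in Foxp3-positive and 127 CPM in Foxp3-negative control cells, and at 884 and 155 CPM in haplodeficient cells. Il1rl1 stood at 273 and 31.7 CPM in control cells and at 326 and 49.4 CPM in haplodeficient ones. Txndc11, a thioredoxin-domain gene, and Rrad, which encodes a small GTPase, had log2 ratios of 2.97 and 3.77 among control cells and of 3.11 and 2.46 among haplodeficient ones. Their 4 and 11 UMIs in control Foxp3-positive cells each lay in 1 of 2 cells, as did the 3 of Il1rl1. Tnfrsf9, Il1rl1, Txndc11 and Rrad were among the 12 genes ranked highest in Foxp3-positive cells of both libraries. Their shared direction was therefore fixed by the ranking. Cd40lg had 0 and 1 UMI in Foxp3-positive cells and 41 and 452 UMIs in the others. Cd40lg was among the 12 genes ranked lowest in Foxp3-positive cells of both libraries. Most of the others in that ranking were endothelial, and their UMIs came from few Foxp3-negative cells. Emcn, an endothelial surface sialomucin, came from 1 of 33 and 5 of 202, and Flt1, a receptor for VEGF, from 1 and 7. Outside that ranking, Bach2 and Tcf7 were also lower in both libraries, though the control had only 2 Foxp3-positive cells. Bach2 was in 0 of 2 and 2 of 10 Foxp3-positive cells, and Tcf7 in 0 of 2 and 1 of 10. Among Foxp3-negative cells Bach2 was in 17 of 33 and 75 of 202, and Tcf7 in 12 and 62.

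Most cells with Ctla4 or Ikzf2 had no Foxp3 UMI. Ctla4 was detected at equal depth in 40.01% (23.9 to 57.9) of cells in the control library and in 34.4% (28.2 to 41.4) in the other, against 10.6% and 14.4% of CD8-gated cells. Cells with both Ctla4 and Ikzf2 numbered 11 and 36, of which 2 and 8 had a Foxp3 UMI. Ikzf2 was expected at 23.3% (10.4 to 40.1) in control cells and at 12.5% (8.21 to 17.5) in haplodeficient cells at equal depth. Its level was 290 CPM in the control and 235 CPM in the haplodeficient library over all members, and 576 and 228 CPM over screened cells. The ratio of haplodeficient to control was thus 0.813 (0.607 to 1.10) with all members and 0.395 (0.287 to 0.549) after the screens. Tnfrsf4, which encodes the costimulatory receptor OX40, was expected in 20.2% and 14.9% of CD4 T cells and in 0% and 0.234% of CD8-gated cells. Il10, a cytokine that dampens inflammation, had a UMI in only 2 and 4 cells.

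Ifng (ENSMUSG00000055170) was the defining cytokine with the highest cell count. It was detected in 5 of 35 control cells with 7 UMIs, and in 52 of 212 haplodeficient cells with 184 UMIs. Its level was 34.9 CPM (14.0 to 72.0) and 192 CPM (166 to 222), a ratio of 5.51 (2.62 to 13.9), and over screened cells 72.1 and 307 CPM, a ratio of 4.27 (2.03 to 10.8). The share of Ifng-positive cells at equal depth was 5.07% (0.700 to 19.2) and 14.8% (10.2 to 20.2), and these intervals overlapped. CD8-gated cells had 11.6% and 18.3%, and macrophage-gated barcodes 0.0279% and 0.0390%. The haplodeficient library was thus higher in UMIs of Ifng, while the difference in the number of Ifng-positive cells was within counting error.

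Among the 52 haplodeficient Ifng-positive cells, 17 had a UMI of Tbx21 against 24 of the other 160. Nkg7, a granule gene of cytotoxic and type 1 cells, was in 32 against 55, and Tnf, which encodes tumour necrosis factor, in 23 against 38. Xcl1, a chemokine that attracts cross-presenting dendritic cells, was in 16 against 25. Cd40lg was in 38 of the 52. In the control library, none of the 5 Ifng-positive cells had a Tbx21 UMI and 3 had Cxcr3, a chemokine receptor of type 1 cells. Tbx21 was expected in 2.48% and 7.63% of cells at equal depth. Gzmb, which encodes granzyme B, was found in 2 and 4 CD4 T cells, and its level of 49.9 and 5.23 CPM compared with 409 and 203 CPM in CD8-gated cells.

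Il17a (ENSMUSG00000025929) lay in few cells, some with many UMIs each. Il17a or Il17f was found in 3 of 35 control cells and 17 of 212 haplodeficient cells, and at equal depth in 5.77% (0.700 to 19.2) and 7.64% (4.40 to 12.02). CD8-gated cells had 0% and 0.974%, and macrophage-gated barcodes 0% and 0.0489%. The Il17a level was 59.9 CPM (30.9 to 105) and 304 CPM (270 to 341), a ratio of 5.08 (2.86 to 9.95) of haplodeficient over control. Over screened cells it was 124 and 494 CPM. In the control, 1 cell held 10 of the 12 UMIs. The libraries thus differed in Il17a UMIs more than in the share of Il17-positive cells.

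The 17 haplodeficient cells carried 3 to 56 Il17a UMIs each. None of them had an Ifng or a Foxp3 UMI. Il23r, the receptor that maintains this state, was in 11 of 17 against 14 of the other 195 haplodeficient cells, and Ccr6, a chemokine receptor of the state, in 8 against 22. Tmem176a and Tmem176b, which encode related membrane proteins, were in 16 and 17 of the 17. Rora was in 14, Cxcr6 in 16 and Ctla4 in 16. Csf2, which encodes the cytokine GM-CSF, and Il22 were each in 2. Of the gamma-delta T-cell receptor genes, Tcrg-C1 was in 3 of these cells and Trdc in 1, and Trac was in 13. The control cell with 10 Il17a UMIs also had 2 Foxp3, 5 Trdc and 3 Trac UMIs among 8187, so it does not fall in 1 state.

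**Figure D3:**
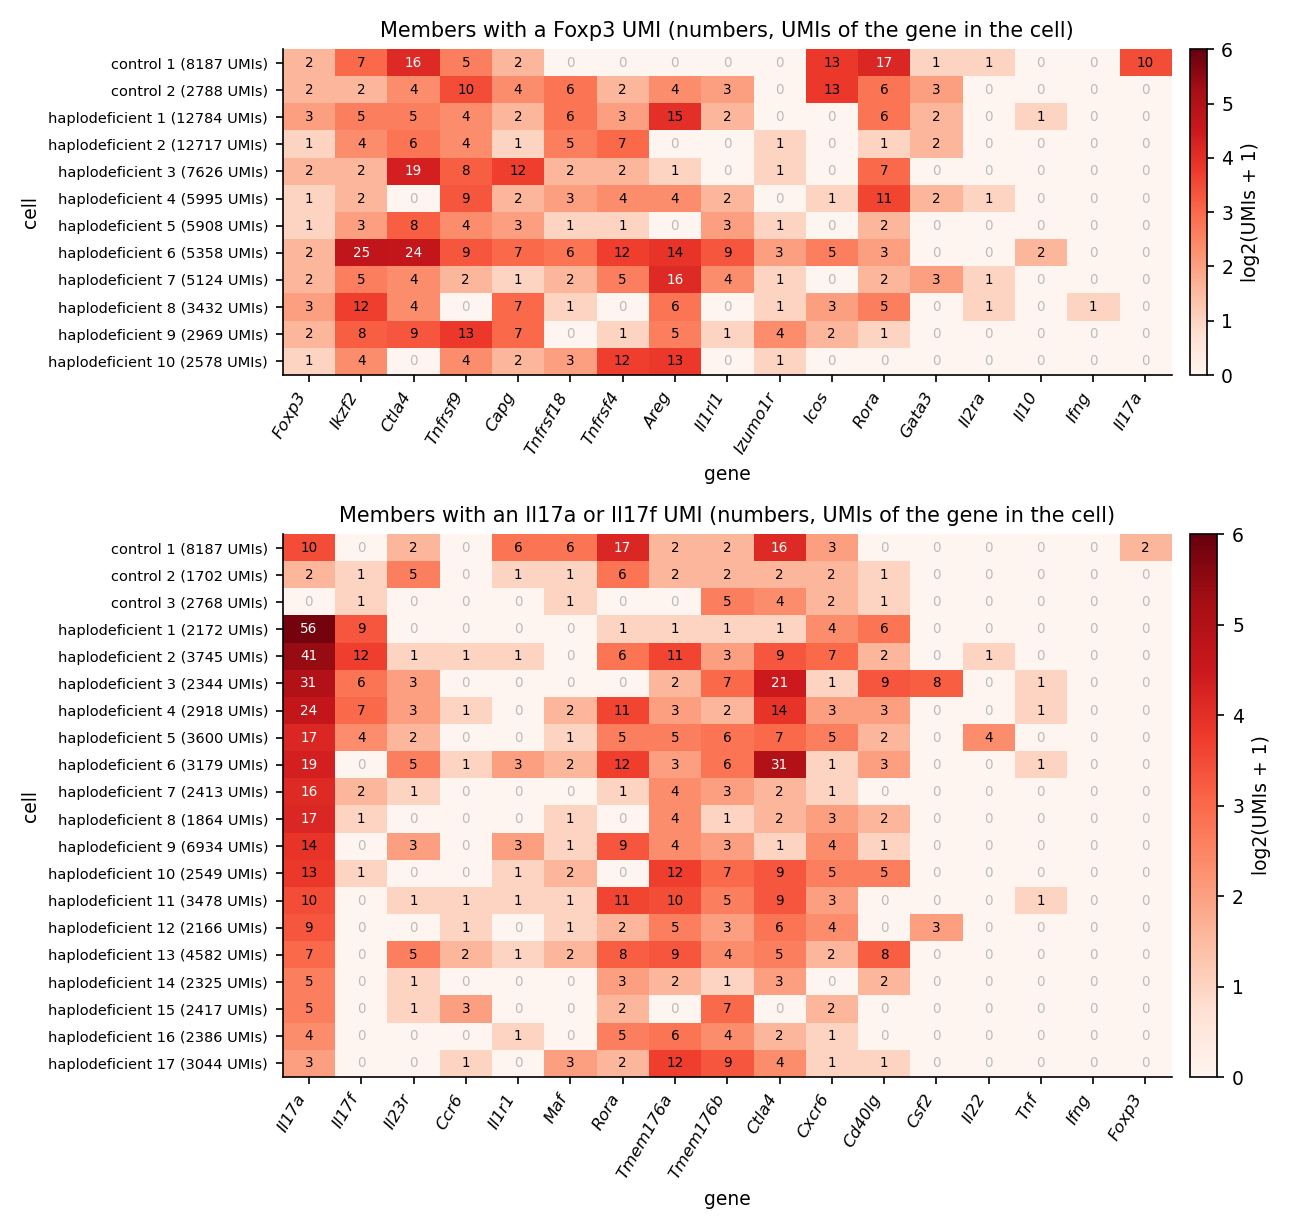
UMIs of selected genes (columns) in each Foxp3-positive cell and each Il17a- or Il17f-positive cell (lines), coloured by log2(UMIs + 1) with the UMI number written in each cell. All 12 Foxp3-positive cells have Ikzf2 UMIs, and the 17 haplodeficient Il17-positive cells have no Ifng or Foxp3 UMI.

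The other helper states were sparse. Il4, Il5 or Il13 had a UMI in 0 of 35 control cells, which allows a share of cells with such a UMI of up to 8.57%, and in 4 of 212 haplodeficient cells. Gata3 was expected at equal depth in 15.1% (4.81 to 30.3) and 9.77% (6.27 to 14.8). Of follicular helper genes, Cxcr5 had a UMI in 0 and 6 cells, and Bcl6, the factor of that state, was expected in 1.08% and 5.58% against 9.49% and 6.98% of macrophage-gated barcodes. Cxcr6, a chemokine receptor of tissue T cells, was expected in 24.5% (12.5 to 43.3) and 30.3% (24.2 to 37.0), close to the 33.6% and 33.7% of CD8-gated cells. Any of Foxp3, Ifng, Il17a, Il17f, Il4, Il5, Il13 and Il21 was expected in 13.5% (4.81 to 30.3) and 24.3% (18.6 to 30.5), so most cells at this depth had no defining transcript.

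**Figure D4:**
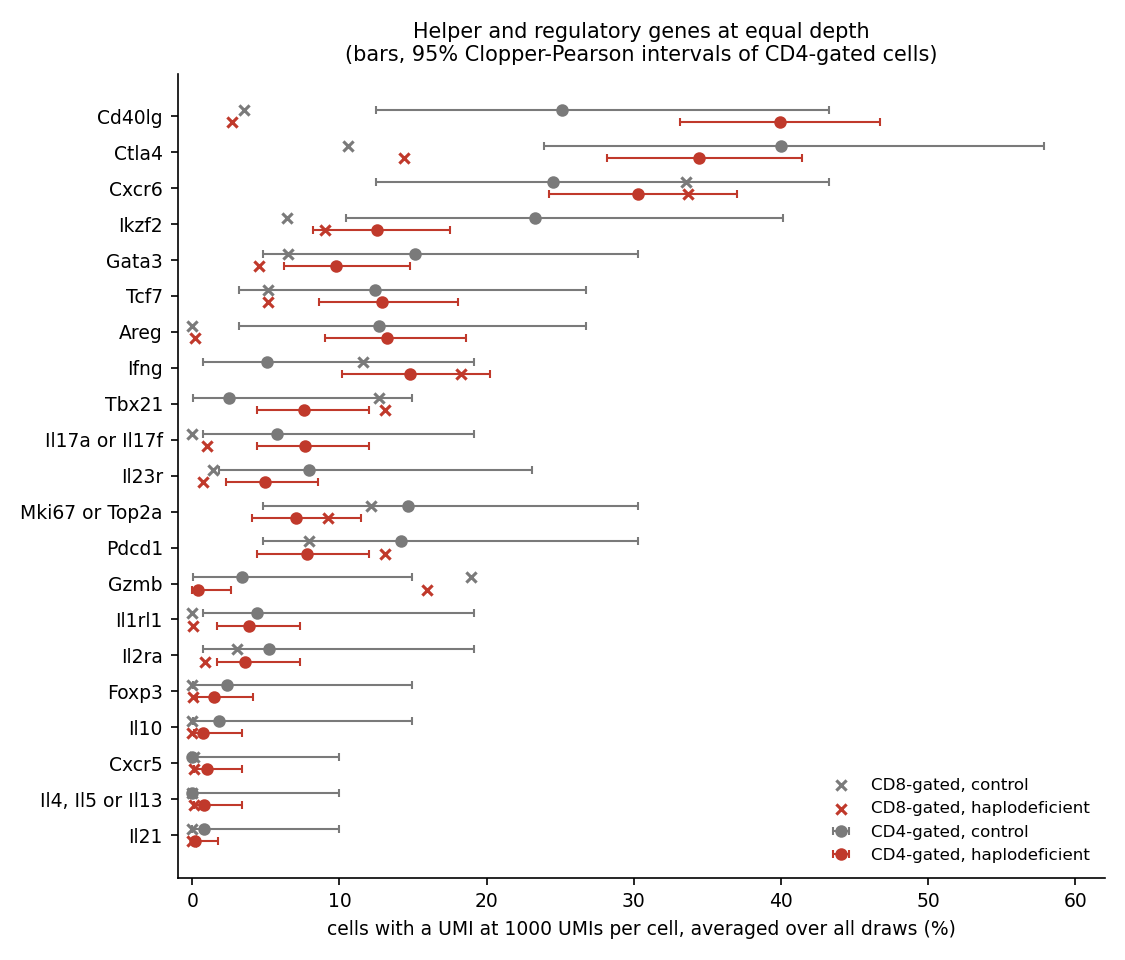
Percent of CD4-gated cells with a UMI of each state gene at 1000 UMIs per cell, averaged over all draws, beside the same share in CD8-gated cells. The 95% intervals are those of the nearest whole number of cells. Control and haplodeficient intervals overlap for every gene plotted, and Cd40lg reaches 25.1% and 39.95% in CD4-gated cells against 3.55% and 2.69% in CD8-gated cells.

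Cd40lg, Icos, Areg and Rora were higher in CD4 T cells than in CD8-gated cells. Cd40lg was expected at 25.1% (12.5 to 43.3) in control CD4 T cells, at 39.95% (33.2 to 46.8) in haplodeficient ones and at 3.55% and 2.69% in CD8-gated cells. Icos, a costimulatory receptor, was expected in 59.3% and 44.0% against 30.1% and 18.4%. Areg was expected in 12.7% and 13.2% against 0% and 0.176%. Rora stood at 769 and 593 CPM in CD4 T cells against 266 and 223 CPM in CD8-gated cells. Ccl5, a chemokine of cytotoxic cells, was the reverse, at 669 and 951 CPM in CD4 T cells against 4061 and 6317 CPM. Xcl1 also ran lower, expected in 2.71% and 10.8% of CD4 T cells against 22.8% and 30.6%. These directions held in both libraries, but the gates themselves used measured genes, so they are a description.

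Summed levels were then set side by side between the libraries. Of 3544 genes that averaged 50 CPM or more and had 30 or more UMIs, 269 (7.59%) passed the size rule, an absolute log2 ratio of at least 1 after adding 5 CPM with Poisson intervals that did not overlap. In the haplodeficient library 72 (2.03%) were higher and 197 (5.56%) lower. With each cell given equal weight, 96 were higher and 122 lower. Over screened cells 116 of 3044 genes (3.81%) passed, 36 higher (1.18%) and 80 lower (2.63%). Only 24 of the higher and 25 of the lower genes passed both ways. Without the size rule, 1587 of 3544 genes were higher and 1957 lower over all members, and 1421 of 3044 were higher over screened cells.

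Several of the largest ratios over all members rested on a few barcodes with other cells' genes. H2-Aa, H2-Ab1, H2-Eb1 and Cd74, which present antigen on MHC class II, had log2 ratios of 5.29, 4.65, 4.70 and 3.71. Over screened cells H2-Ab1 and Cd74 were both at -0.60. Ccl17, a dendritic cell chemokine, had 114 UMIs in 2 haplodeficient cells. On the lower side stood S100a8, S100a9 and Retnlg of neutrophils at -4.21, -4.17 and -6.23 and Umod and Defb1 of distal tubule at -4.04 and -5.68, and Slc12a3 of the same segment had 106 control and 0 haplodeficient UMIs. The neutrophil, tubule and dendritic lists had their highest single-cell sums, 798, 1087 and 559 UMIs, in barcodes that the screens removed.

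The genes that passed both ways and were higher in the haplodeficient library included cytokines and activation genes. Tnf (ENSMUSG00000024401) stood at 39.9 CPM (17.2 to 78.7) in 6 control cells and at 326 CPM (291 to 365) in 61 haplodeficient cells, a ratio of 8.17 (4.10 to 19.1), and at 72.1 and 477 CPM over screened cells. In CD8-gated cells it stood at 44.3 and 185 CPM. Ccl4, a chemokine of activated T cells, had no control UMI and 131 UMIs in 19 haplodeficient cells. Set against a floor of 3 control UMIs, its haplodeficient level was 9.15-fold higher, and 3.68-fold over screened cells. The lower limit of its ratio over screened cells was 2.91. Cd40lg (ENSMUSG00000031132) stood at 205 CPM (147 to 278) and 474 CPM (431 to 520), a ratio of 2.32 (1.68 to 3.27), and at 309 and 717 CPM over screened cells. In CD8-gated cells Cd40lg stood at 37.5 and 28.3 CPM. All 15 control UMIs of Xcl1 lay in 1 cell, while 41 haplodeficient cells held 356.

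Nr4a1 (ENSMUSG00000023034), an immediate early gene of T-cell receptor signalling, stood at 84.9 CPM (49.4 to 136) and 258 CPM (227 to 293), a ratio of 3.04 (1.86 to 5.31), and at 51.5 and 261 CPM over screened cells. At equal depth it was expected at 4.11% (0.0723 to 14.9) in control cells and at 21.0% (15.6 to 27.0) in haplodeficient cells. It was the only 1 of 382 list genes (0.262%) whose intervals were apart at equal depth, beside 8 of all 3544 genes (0.226%). The control interval was that of 1 of 35 cells. That of 2 of 35 reaches 19.2% and overlaps, so the separation rested on rounding. Over screened cells the Nr4a1 intervals overlapped, at 3.35% and 20.7%. CD8-gated cells had 4.92% and 10.3%, and macrophage-gated barcodes 14.96% and 15.04%. Nr4a2, Gadd45b, Nfkbid and Dusp10, further genes induced on activation or stress, had log2 ratios of 1.34, 2.25, 1.31 and 2.14 over all members and of 1.01, 1.87, 1.12 and 2.29 over screened cells. Odc1, which makes polyamines, stood at 54.9 and 373 CPM, and at 61.8 and 418 CPM over screened cells. Several of these genes also respond to tissue dissociation. The list of 25 tested dissociation and immediate early genes had a median log2 ratio of 0.41, with 19 higher and Junb and Nr4a1 past the size rule, and over screened cells it was 0.50. The same list had 0.38 in CD8-gated cells and 0.01, with 14 higher and 13 lower, in macrophage-gated barcodes. Its part in the activation genes was not tested.

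Interferon-stimulated genes were mostly higher. Of 16 tested, 13 were higher, beside 1587 of all 3544 genes, and 6 passed the size rule, all higher. Their median log2 ratio was 0.37 beside -0.07 over all 3544 genes. Over screened cells 12 of 14 were higher, 3 passed and the median was 0.26. Bst2, which tethers virus particles, stood at 44.9 and 243 CPM (20.6 and 195 over screened cells), Isg20, an exonuclease, at 29.9 and 118 CPM, Isg15, a ubiquitin-like modifier, at 59.9 and 174 CPM, and Ifi27l2a at 659 and 2009 CPM (1153 and 2557 over screened cells). Genes of MHC class I and of the interferon-gamma GTPases were higher in 16 of 19 with none past the rule, for example H2-D1 at 1198 and 2055 CPM and the immunoproteasome subunit Psmb8 at 439 and 841 CPM. The interferon-stimulated median was 0.46 in CD8-gated and 0.44 in macrophage-gated barcodes, and that of the other list 0.28 and 0.29.

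Cell cycle genes were lower in the haplodeficient library. All 16 tested were lower, 8 past the size rule, with a median log2 ratio of -1.11, and over screened cells 12 of 14 were lower, 5 past the rule, with a median of -0.93. The same list had a median of -0.01 in CD8-gated cells. Mki67 (ENSMUSG00000031004), a marker of proliferation, stood at 255 CPM (190 to 335) in 9 control cells and at 58.6 CPM (44.2 to 76.1) in 14 haplodeficient cells, a ratio of 0.230 (0.155 to 0.343). Over screened cells the ratio was 0.204 (0.102 to 0.411). Few cells carried this signal: 6 control and 14 haplodeficient cells had 20 or more UMIs of the list, and 3 of the 6 were very deep. Mki67 or Top2a, a DNA topoisomerase of dividing cells, was expected at equal depth in 14.7% (4.81 to 30.3) and 7.07% (4.03 to 11.5) of cells. Intervals of the level lay apart, while those of the share of cells with either gene overlapped.

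**Figure D5:**
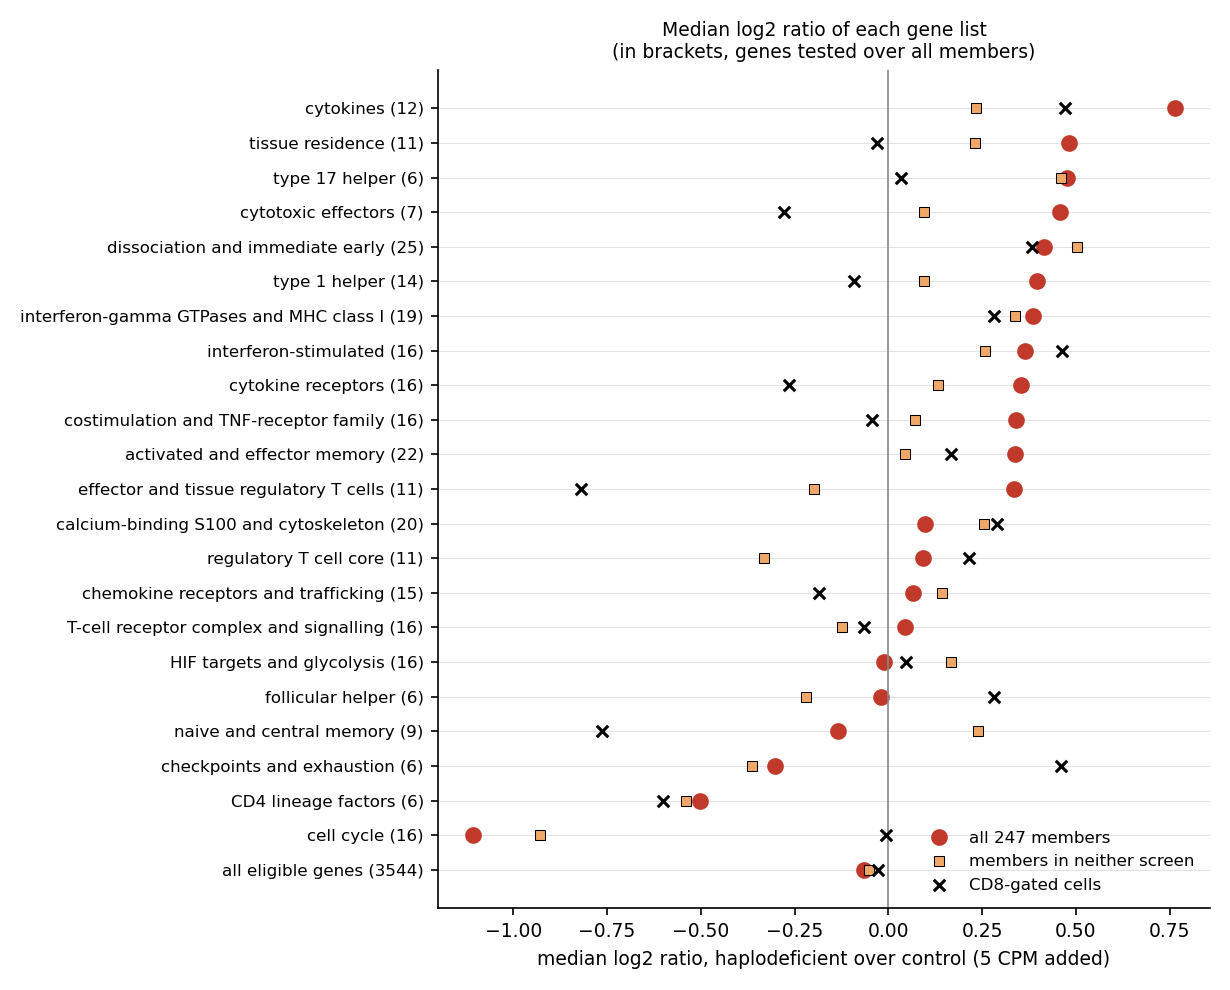
Median log2 ratio of haplodeficient over control for each gene list, over all CD4-gated members, over screened cells and in CD8-gated cells, with the number of tested genes in brackets. The cell cycle list lies at -1.11 in CD4-gated members and -0.01 in CD8-gated cells, and the interferon-stimulated list at 0.37 and 0.46.

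Lists of the helper and regulatory states were mixed. The type 1 list had 9 of 14 genes higher, at a median of 0.40 and of 0.09 over screened cells, with Ifng, Tnf and Ccl4 past the rule, while Il12rb2, a chain of the interleukin-12 receptor, stood at 110 and 38.7 CPM and passed in the lower direction, as it did in screened cells at 165 and 52.6 CPM. In CD8-gated cells it stood at 188 and 66.7 CPM. The regulatory core list had 7 of 11 genes higher over all members, with a median of 0.09, and 2 of 11 over screened cells, with a median of -0.33, so its direction depended on the screens. The effector regulatory list likewise had medians of 0.34 and -0.20. Tissue residence genes had 10 of 11 higher, with Xcl1 and Rgs1, a regulator of G-protein signalling, past the rule, and a median of 0.48. Over screened cells 8 of 10 were higher, Xcl1 alone passed and the median was 0.23. The CD4 lineage factors had 0 of 6 higher, with a median of -0.50 beside -0.60 in CD8-gated cells. Tox, a factor needed for CD4 T-cell development, stood at 579 and 311 CPM over all members and at 1029 and 404 CPM over screened cells, where it passed the rule.

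Among the genes that passed both ways, some were shared across cell types. Kap, an androgen-regulated gene of proximal tubule, stood at 4602 and 179 CPM, and at 371 and 3.396 CPM over screened cells, with a log2 ratio of -4.65 in CD4-gated and of -4.51 in macrophage-gated barcodes. Gpx3, a secreted tubule peroxidase, had -1.21 in CD4-gated (-3.36 over screened cells), -2.82 in CD8-gated and -2.39 in macrophage-gated barcodes. Rpl29, a ribosomal protein gene, stood at 140 and 858 CPM (175 and 1007 over screened cells) and had a log2 ratio of 2.58 beside 1.80 in both CD8-gated and macrophage-gated barcodes. Over all members, 31 tubule and podocyte markers had 1677 control and 1224 haplodeficient UMIs, which is 28.0% and 17.2% of what those members would hold if all their RNA were free RNA. Over screened cells the markers had 114 and 128 UMIs, or 3.93% and 2.92% of that amount. In the control, 1 deep barcode alone held 1087 proximal tubule UMIs.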

How the data were processed

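Single cells of 2 kidney libraries were profiled with 10x 3′ chemistry. The authors deposited raw UMI counts per gene and barcode for 32285 gene identifiers, which the file headers assign to Cell Ranger version 4, and aligned to mm10 per the submitters' processing notes. Filters, gates and levels were computed with python 3.11.15, numpy 2.4.6, scipy 1.17.1, pandas 2.3.3 and matplotlib 3.10.9. The members and gene lists were chosen with earlier results of these data known.

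UMIs of members were summed per library and scaled to 1000000 (CPM). The size rule was applied to genes that averaged 50 CPM or more and had 30 or more UMIs. It asked for an absolute log2 ratio of at least 1, after adding 5 CPM, and exact Poisson 95% intervals lying apart. It was tested on simulated Poisson counts, which do not hold the clumping of UMIs in few cells. Shares have Clopper-Pearson intervals, with averaged shares first rounded to whole cells, and ratios have conditional binomial ones. Genes named are list genes with at least 10 UMIs, those with the highest levels or largest ratios and the defining factors, and the 12 in each direction past the size rule or between Foxp3-positive and Foxp3-negative cells. Where a text value falls outside these, it was chosen after its values were seen.

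No doublet caller was run. The 2 screens removed members over 3 times their library's median UMIs and members with 5 or more UMIs of a B cell, dendritic cell, neutrophil, endothelial or fibroblast list. The use of both together, and thinning to 1000 UMIs averaged over all draws, were added after seeing the data. Free RNA was profiled from barcodes of 1 to 100 UMIs. The hashing library was not used here. Some marker genes are not reported here.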

Additional observations from a re-analysis of the deposited data

How the results depend on the processing

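No paired analysis was possible because each group has 1 library, and leaving out a replicate could not be done for the same reason. Of 369 alternative list medians, 41 changed sign, over 12 of 22 lists; both interferon lists and the cell cycle, cytokine, tissue residence, type 1, dissociation, activated, S100 and CD4 lineage lists kept theirs under the alternatives run. The costimulation list, at 0.34, had -0.0025 with cells weighted alike and -0.10 with screened cells weighted alike. The 72 genes higher became 149 with at least 2 Cd4 UMIs, 44 without very deep cells, 36 with both screens, 110 at 10 CPM and 47 at 100 CPM. The 197 lower became 89 without very deep cells, 106 without members carrying innate-like T or NK genes, 80 with both screens, 389 at 10 CPM, 73 at 100 CPM, 122 with cells weighted alike and 61 with screened cells weighted alike. The CD4 share was 0.116% and 0.768% with at least 2 Cd4 UMIs, 0.188% and 0.987% thinned, 2.06% and 4.69% of Ptprc-positive and 15.2% and 14.9% of Cd3-positive barcodes. The haplodeficient Foxp3 share was 0% thinned to 500 UMIs, 3.21% at 2000 and 4.72% unthinned. Of 66 named genes, 11 passed the size rule in all 17 alternatives, among them Ifng, Il17a, Tnf, Bst2, Odc1, Gadd45b and Mki67. These 66 were the 12 largest ratios in each direction and the genes that passed both ways. Passing with both screens was therefore fixed by the choice for the latter. Cd40lg passed in 15 (0.99 with at least 2 Cd3 UMIs and 0.91 without innate-like genes) and Nr4a1 in 16 (1.08 with at least 2 Cd4 UMIs, intervals overlapping). Reversed log2 ratios were those of other cells' genes. With at least 2 Cd3 UMIs they were Adamts9 1.13, Retnlg 0.31, S100a8 3.14 and S100a9 4.54. Without very deep cells they were Adamts9 1.34, Cd74 -0.048, Defb1 0.69, H2-Ab1 -0.23, Nox4 0.69, Retnlg 0.39, S100a8 2.89, S100a9 4.76 and Tmem213 1.504. Without innate-like genes they were Adamts9 1.18, Retnlg 0.32, S100a8 3.09 and S100a9 4.61. Without likely doublets they were Cd74 -0.21, H2-Ab1 -0.17 and S100a9 0.68. With both screens they were Cd74 -0.60, Defb1 0.75, H2-Ab1 -0.60, Nox4 0.75, S100a9 0.75 and Tmem213 1.60, and with screened cells weighted alike Cd74 -0.48, Defb1 0.95, H2-Aa -0.20, H2-Ab1 -0.62, Nox4 0.55, S100a9 0.89 and Tmem213 1.76. Ccl17 had -1.01 and H2-Eb1 -0.60 with at least 2 Cd4 UMIs, Ccl17 -1.03 with no C1q UMI, and Nox4 1.42 at 25% mitochondrial UMIs. The cause was not tested. The 35 control cells limit every control value.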

Other observations

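Genes that respond to the hypoxia-inducible factors, which prolyl hydroxylases mark for breakdown, had no common direction in CD4 T cells. Of 16 tested hypoxia-target and glycolysis genes, 8 were higher and 8 lower in the haplodeficient library, none past the size rule, with a median log2 ratio of -0.01 beside 0.05 in CD8-gated cells. The median was 0.06 with median-of-ratios scaling and 0.17 over screened cells, where 10 of 15 were higher. There Ldha, which makes lactate, passed the size rule as higher, at 144 and 321 CPM, and Ddit4, a stress-induced inhibitor of mTOR, as lower, at 113 and 32.3 CPM. Over all members Ldha stood at 220 and 319 CPM, Pgk1, a glycolytic kinase, at 120 and 79.5 CPM, and Hif1a, the oxygen-regulated factor itself, at 185 and 234 CPM.

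Genes of cytokines were mostly higher, 10 of 12 with 4 past the size rule (Ifng, Tnf, Il17a and Cd40lg), at a median of 0.76, and 11 of 13 over screened cells at 0.23. Over all genes 1587 of 3544 were higher, 72 of them past the rule. In CD8-gated cells 5 of 6 tested cytokine genes were higher, at a median of 0.47. Genes of the T-cell receptor complex and its signalling were balanced, 8 of 16 higher with a median of 0.05, and -0.12 over screened cells. The 2 receptor β constant genes, Trbc1 and Trbc2, are near-identical copies, so their separate counts are uncertain: 19 control and 109 haplodeficient cells had UMIs of Trbc2 alone, 2 and 6 of Trbc1 alone, and 9 and 80 of both.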
